A study of Danio rerio with 15 samples.

Results

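Ribosomes are assembled in the nucleolus, where RNA polymerase I transcribes the long precursor of the ribosomal RNAs. Small nucleolar ribonucleoproteins (snoRNPs) modify this precursor, a large processome folds and cuts the part that becomes the small (40S) subunit, and a second set of helicases, GTPases and scaffold proteins builds the large (60S) subunit. Hepatocytes make much protein for export and rely on a steady supply of ribosomes, and the nucleolus is also known as a sensor of cellular stress.

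The genes described here are those of this machinery in the zebrafish liver whose symbols begin with the usual names of nucleolar and ribosome assembly factors (nop, nol, utp, polr1, rrp, gnl2 and gnl3, imp3 and imp4, the ddx helicases of ribosome assembly, and single names such as dkc1, fbl, ncl, npm1a, pes and rrs1). The rule goes by name and not by any measured value, though it was chosen with earlier results of these data known. Of 8793 genes with a probe set of a single symbol, 61 met the rule, and each is represented by its probe set with the highest mean. By the role each is best known for, 6 belong to RNA polymerase I, 5 to snoRNPs, 22 to the small subunit, 22 to the large subunit and 5 to the organisation of the nucleolus. The 61st, nol4lb (nucleolar protein 4 like b), carries a nucleolar name but is not known as an assembly factor. Some roles are known from yeast or human proteins only.

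Expression was read from 15 GeneChip Zebrafish Genome Arrays, in 5 groups of 3, and every array held RNA from a pool of 2 male livers of the AB background at 16 weeks of age. In the long-term response groups, embryos received 0.1 or 1.0 Gy of γ-rays from a 137Cs source at 24 hours post fertilization (embryo 0.1 Gy and embryo 1.0 Gy). In the acute response groups, adults received the same doses 4 hours before the livers were taken (adult 0.1 Gy and adult 1.0 Gy), and the controls were never irradiated. The embryos of the controls and of both long-term groups were drawn from a single pool, and the irradiated adults were later drawn from the control group, without a described sham treatment. Each group was irradiated as 1 set of fish, and whether the groups were housed apart is not given in the sources used here. Every standard error below rests on the spread between pools of fish within such sets, as 1 estimate for each probe set shared by all 5 groups. In whole liver, fewer cells of a type and less RNA per cell cannot be told apart either.

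Values are log2 expression, so a difference of 1 is a doubling. A difference is given with its standard error from limma, and a gene is said to be called, or to have risen or fallen, where both the F-test over the 5 groups and the comparison had a Benjamini-Hochberg adjusted p under 0.05 over all 8634 tested probe sets. Of the members, 50 varied enough to be tested (over the 15 arrays their interquartile range reached 0.2) and 11 did not. Just outside the limit lay nopchap1, ncl and rrp9, with interquartile ranges of 0.19998, 0.197 and 0.192, and just inside it lay bop1, rrp7a and polr1c, with 0.217, 0.219 and 0.225. Mean levels ran from 3.42 for mak16, a value near the floor of these arrays, to 11.24 for npm1a. The median SD of the tested members was 0.29 in controls, against 0.14 to 0.22 in the irradiated groups. Since the limma errors share 1 estimate of spread over the 5 groups, those of differences from the controls can be too small.

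The record contradicts itself on 4 arrays. Replicates 1 and 2 of adult 0.1 Gy carry the source name of control replicate 1, which mentions no irradiation, and replicates 2 and 3 of the controls carry one that names irradiation as adults. Their groups were taken from the entries for title, dose and timing. Over all tested probe sets adult 0.1 Gy replicates 1 and 2 correlated at 0.985 and 0.986 with adult 0.1 Gy replicate 3. Control replicates 2 and 3 correlated at 0.973 and 0.968 with control replicate 1, against 0.931 to 0.941 for the adult arrays. The embryo arrays correlated with it at 0.959 to 0.973, so these values set the controls apart from adult but not from embryo arrays. Calls that rest on these arrays are also given without them, which leaves a single control and a single adult 0.1 Gy array. Control replicate 1 was the lowest of the 3 controls for 40 of the 50 tested members, and control replicate 3 was the lowest for 0.

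The module as a whole was lowest in the livers of adults given 1.0 Gy. Averaged over all 61 members, the level was 6.83, 6.69 and 6.59 in embryo 0.1 Gy livers, 6.79, 6.77 and 6.65 in embryo 1.0 Gy livers, 6.70, 6.68 and 6.56 in adult 0.1 Gy livers, 6.35, 6.37 and 6.46 in adult 1.0 Gy livers, and 6.48, 6.73 and 6.95 in control livers. All adult 1.0 Gy arrays lay below all other arrays, with control replicate 1 the nearest. The controls had the widest spread (SD 0.24, n = 3), against 0.06 to 0.12 in the irradiated groups. Of the 50 tested members, 34 (68%) had their lowest group mean in adult 1.0 Gy livers, as did 20.8% of all tested probe sets. The control mean was the lowest for 9 members (18%, against 32.9% of all tested probe sets) and the highest for 19 (38%, against 29.0%).

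**Figure D1:**
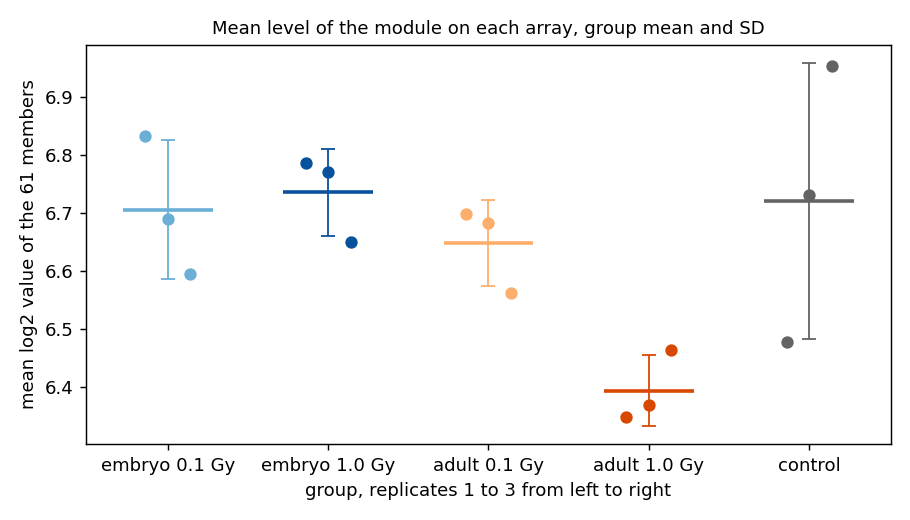
Mean log2 value of the 61 members on each array (points, replicates 1 to 3 from left to right), with the group mean (line) and SD over 3 arrays (bar). Adult 1.0 Gy arrays lay between 6.35 and 6.46, and the control arrays spread from 6.48 to 6.95.

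Compared with controls, the acute response held mostly decreases. Of the 50 members, 27 (54%) were called, 21 lower and 6 higher. Over all tested probe sets 39.6% were called, 25.0% lower and 14.6% higher. With 1 probe set per gene, 42.7% of all tested genes were called, 27.9% lower and 14.8% higher. The median difference of the members was -0.28, against 0.01 over all tested probe sets, and 14 of 50 members lay above 0. The median was -0.43 without control replicate 1 and -0.15 without control replicate 3. The 2 doses differed in how far the members lay from the control mean, with a median of -0.11 in adult 0.1 Gy livers and -0.43 in adult 1.0 Gy livers.

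The count depended on the controls. For all 21 members that fell, control replicates 2 and 3 lay above all 6 adult arrays, and for 13 of them control replicate 1 lay within or below the range of the adult arrays. Adult and control arrays did not overlap for 8 members that were lower (23.4% of all tested probe sets) and for 5 that were higher (18.8%). The count was 16 without control replicate 2 and 16 without control replicate 3, and 13 of the 27 calls held in each of the 15 fits that left out a single array. With the 4 arrays of another source name left out, 5 of 44 tested members were called, 3 of them lower, and the median difference was -0.11. These were ddx18 and rrp1, which were higher, and imp3, nol11 and nol9, which were lower. The median over all tested probe sets was -0.04 in that fit.

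In the long-term response the share of members called was that of the array. Of the 50 members, 11 (22%) were called, 6 higher and 5 lower, against 21.2% of all tested probe sets (7.56% higher and 13.7% lower). The median difference was 0.02, against 0.04 over all tested probe sets. Both the split and the median moved with single controls. Without control replicate 1, 2 members were called higher and 12 lower (median -0.14), without control replicate 2 the split was 0 higher and 2 lower (median 0.03), and without control replicate 3 it was 6 higher and 0 lower (median 0.19). With the 4 arrays of another source name left out, none of the 11 calls held, and utp23 was no longer tested. The median there was 0.27, against 0.01 over all tested probe sets, with 37 of 44 members above 0. The only control left in that fit was replicate 1, the lowest of the 3 controls for 40 of the 50 tested members. None of the 11 calls held in all 15 fits that left out a single array, but utp23 was lost only where it was no longer tested. With array medians subtracted, 3 members were called higher and 6 lower.

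Long-term and acute livers also differed from each other. The size of this difference does not use the control values, but its calls do, through the filter, the F-test and the estimate of spread. In this comparison (long-term minus acute, the mean of both embryo groups minus the mean of both adult groups), 21 of 50 members (42%) were called, against 33.3% of all tested probe sets. Of these, 19 were higher in long-term livers (20.6% of all tested probe sets) and 2 were lower (12.7%). Counted with 1 probe set per gene, 36.1% of all tested genes were called, 23.1% higher and 13.0% lower. The median difference of the members was 0.27, against 0.00 over all tested probe sets. Averaged over the 61 members, adult 0.1 Gy arrays (6.56 to 6.70) overlapped the embryo arrays (6.59 to 6.83). Adult 1.0 Gy arrays (6.35 to 6.46) lay below all of these. In the time comparison 12 of the 21 calls held in all 15 fits, with 12 members called without adult 1.0 Gy replicate 1. Without control replicates 1, 2 and 3 the counts were 23, 16 and 20. When the 4 arrays with another source name were dropped, the median difference was 0.41, against 0.04 over all tested probe sets. The 3 comparisons share arrays, the first pair of them the same controls, so their values are given side by side below.

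**Figure D2:**
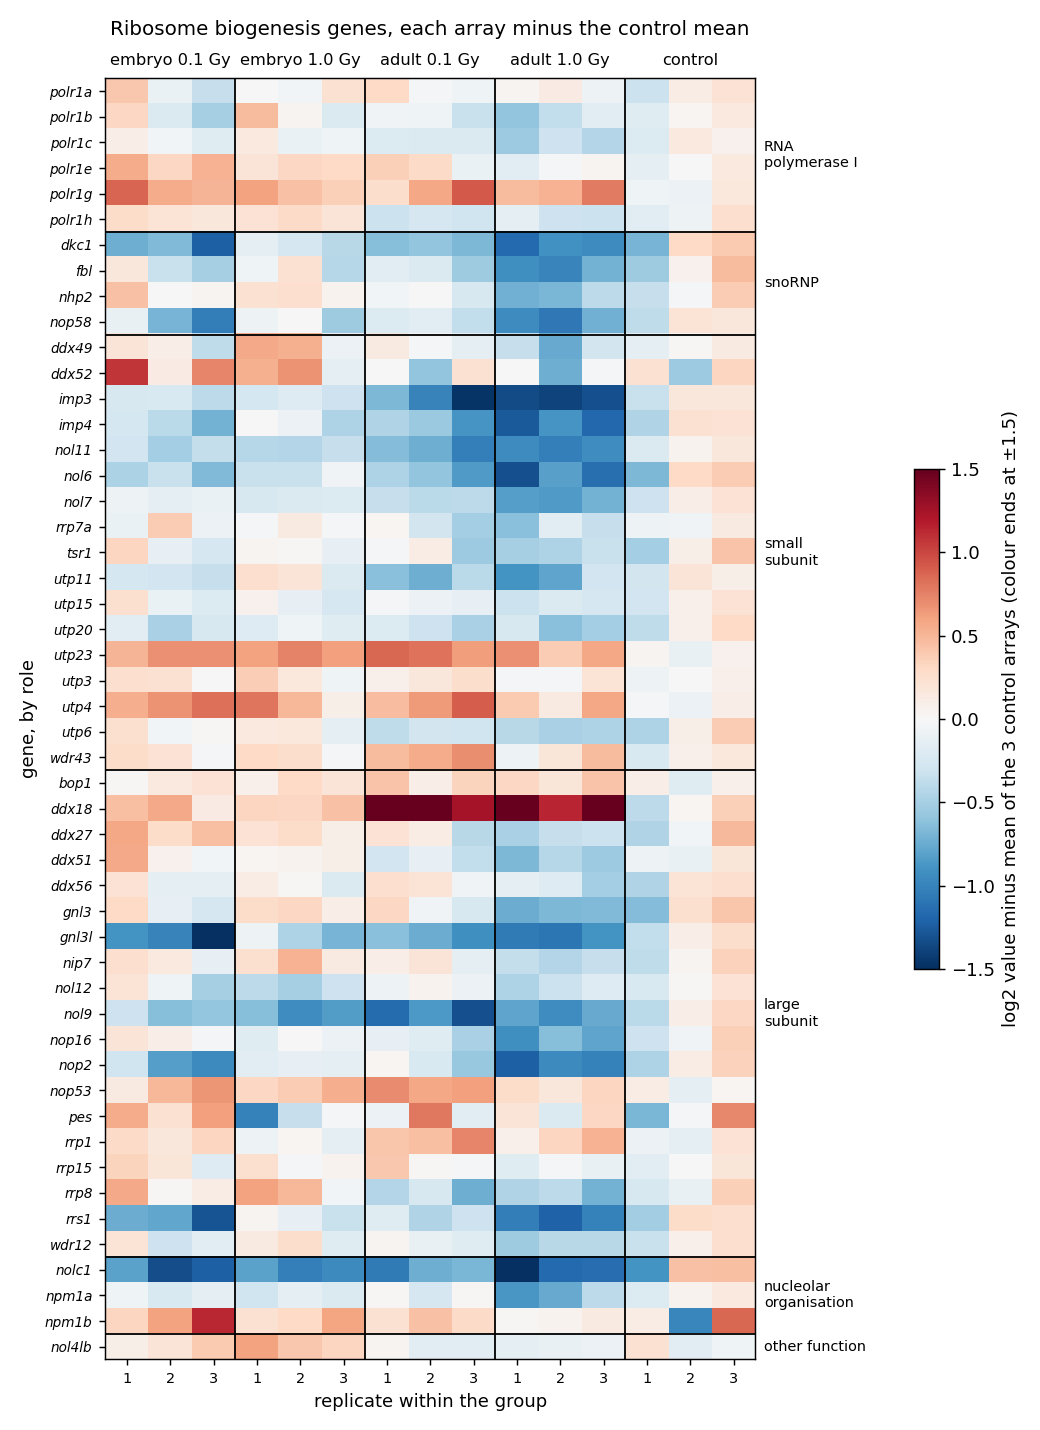
Each of the 50 tested members (rows, grouped by role) on each of the 15 arrays (columns), as log2 value minus the mean of the 3 control arrays, with blue for lower and red for higher. The adult 1.0 Gy columns are blue for most rows, ddx18, utp23, utp4, polr1g and nop53 are red in all irradiated groups, and control replicate 1 is bluer than the other controls.

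RNA polymerase I was mixed. Of its 6 subunits, 3 were called in the acute response (polr1g higher, polr1c and polr1h lower), 2 in the long-term response (polr1e and polr1g higher) and 3 in the time comparison (polr1c, polr1e and polr1h higher in long-term livers). The shares were 50% (acute), 33.3% (long-term) and 50% (time), against 39.6%, 21.2% and 33.3% of all tested probe sets. The largest subunits, polr1a and polr1b, which form the active centre, were not called in any comparison. Their acute differences were 0.05 ± 0.16 and -0.27 ± 0.18, and a second probe set of polr1b lay on the other side of 0 (0.27 ± 0.12, adjusted p = 0.074).

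The level of polr1g, a subunit of the polymerase I specific pair that stabilises initiation and elongation, was 7.48, 7.17 and 7.13 in embryo 0.1 Gy livers, 7.22, 7.05 and 6.97 in embryo 1.0 Gy livers, 6.87, 7.19 and 7.53 in adult 0.1 Gy livers, 7.09, 7.14 and 7.39 in adult 1.0 Gy livers, and 6.54, 6.53 and 6.77 in control livers. All 12 irradiated arrays lay above all controls. The differences were 0.56 ± 0.14, adjusted p = 0.011 for the long-term response and 0.59 ± 0.14, adjusted p = 0.0035 for the acute response. Both calls were lost without control replicate 1 or without control replicate 2, with differences over the fits that left out an array of 0.50 to 0.63 and 0.51 to 0.67. Neither was called without the 4 arrays with another source name (0.62 and 0.82). A second probe set of polr1g gave 0.62 ± 0.11 and 0.46 ± 0.11, both called.

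Its partner polr1e read 7.28, 7.03 and 7.25 in embryo 0.1 Gy livers, 6.91, 7.04 and 7.02 in embryo 1.0 Gy livers, 7.08, 7.01 and 6.63 in adult 0.1 Gy livers, 6.55, 6.69 and 6.76 in adult 1.0 Gy livers, and 6.59, 6.72 and 6.86 in control livers. The embryo arrays lay above all controls and the adult arrays overlapped them. The long-term difference was 0.37 ± 0.11, adjusted p = 0.03, a call that was lost in 7 of the 15 fits (range 0.30 to 0.44), among them those without control replicates 1 or 2, and the acute difference was 0.06 ± 0.11. With the 4 arrays of another source name left out, the long-term difference was 0.50 and not called. In the time comparison it was 0.30 ± 0.09, adjusted p = 0.018.

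For polr1h, the small subunit that helps the enzyme cleave RNA and terminate, the arrays read 7.31, 7.25 and 7.21 in embryo 0.1 Gy livers, 7.26, 7.33 and 7.23 in embryo 1.0 Gy livers, 6.72, 6.79 and 6.74 in adult 0.1 Gy livers, 6.90, 6.73 and 6.72 in adult 1.0 Gy livers, and 6.87, 6.96 and 7.29 in control livers. All embryo arrays lay above all adult arrays, and the controls overlapped both. The time difference was 0.50 ± 0.08, adjusted p = 2.6e-04, and this call held in all 15 fits. The acute difference of -0.27 ± 0.10, adjusted p = 0.029, was lost without adult 1.0 Gy replicates 2 or 3 or control replicate 3 (range -0.36 to -0.15), and was -0.11 without the 4 arrays with another source name.

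Levels of polr1c, a subunit shared with RNA polymerase III, were 5.83, 5.68 and 5.54 in embryo 0.1 Gy livers, 5.87, 5.63 and 5.66 in embryo 1.0 Gy livers, 5.52, 5.51 and 5.51 in adult 0.1 Gy livers, 5.18, 5.42 and 5.29 in adult 1.0 Gy livers, and 5.52, 5.87 and 5.79 in control livers. Only adult 1.0 Gy livers lay below the other groups in every array. It was lower in the acute response (-0.32 ± 0.10, adjusted p = 0.02) and higher in long-term than in acute livers (0.30 ± 0.08, adjusted p = 0.013), each lost in 6 of the 15 fits, since it was lost without adult 1.0 Gy replicates 1 or 3 and not tested in the other 4 (without control replicates 2 or 3 or replicate 1 of either embryo group), with ranges of -0.43 to -0.29 and 0.27 to 0.33. In the fit that left out the 4 arrays with another source name, they were -0.12 and 0.30, neither called.

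All 4 tested snoRNP proteins were below the controls in the acute response, 3 of them called (dkc1, fbl and nop58), and none was called in the long-term response. Over all tested probe sets 39.6% were called in the acute and 21.2% in the long-term response. The pseudouridine synthase dkc1, the catalytic subunit of the H/ACA class that also binds telomerase RNA, had the largest acute decrease of the 4. Its arrays read 6.62, 6.69 and 6.13 in embryo 0.1 Gy livers, 7.22, 7.09 and 6.93 in embryo 1.0 Gy livers, 6.71, 6.76 and 6.68 in adult 0.1 Gy livers, 6.18, 6.45 and 6.40 in adult 1.0 Gy livers, and 6.66, 7.65 and 7.74 in control livers. Control replicate 1 lay within the range of the adult arrays, while the other controls lay about 1 unit above it. Its acute decrease was -0.82 ± 0.20, adjusted p = 0.0044, called in all 15 fits that left out a single array (-1.17 to -0.62) but at -0.15, adjusted p = 0.69 when the 4 arrays with another source name were left out together. The long-term difference, -0.57 ± 0.20, adjusted p = 0.054, missed the threshold, and its embryo 1.0 Gy arrays lay above its embryo 0.1 Gy arrays without overlap.

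Fibrillarin (fbl), the methyltransferase of the box C/D class, read 9.24, 8.74 and 8.57 in embryo 0.1 Gy livers, 9.01, 9.30 and 8.64 in embryo 1.0 Gy livers, 8.91, 8.86 and 8.54 in adult 0.1 Gy livers, 8.15, 8.09 and 8.36 in adult 1.0 Gy livers, and 8.54, 9.13 and 9.55 in control livers. The adult 1.0 Gy arrays lay below all others. The acute decrease was -0.59 ± 0.21, adjusted p = 0.032, a call that was lost in 11 of the 15 fits, without control replicates 2 or 3 among them (-0.86 to -0.35). Its partner nop58, the core scaffold of box C/D particles, fell by a similar amount (-0.58 ± 0.19, adjusted p = 0.024), and its second probe set gave -0.67 ± 0.21, also called. Leaving out the 4 arrays with another source name gave -0.17 for fbl and -0.25 for nop58, neither called. The nop58 call was also lost without adult 1.0 Gy replicates 1 or 2 or control replicates 2 or 3 (-0.77 to -0.47).

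The H/ACA protein nhp2 was called only in the time comparison. It read 9.10, 8.66 and 8.71 in embryo 0.1 Gy livers, 8.90, 8.92 and 8.72 in embryo 1.0 Gy livers, 8.63, 8.66 and 8.43 in adult 0.1 Gy livers, 7.95, 7.98 and 8.28 in adult 1.0 Gy livers, and 8.32, 8.64 and 9.05 in control livers. Each embryo array lay above each adult array, although the nearest pair read alike to the second decimal. The time difference was 0.51 ± 0.12, adjusted p = 0.0049, lost only without adult 1.0 Gy replicate 1 (0.44 to 0.57).

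Among the 17 tested small subunit factors, 9 were called in the acute response (7 lower, 2 higher), 3 in the long-term response (2 higher, 1 lower) and 8 in the time comparison, all higher in long-term livers. These shares were 52.9%, 17.6% and 47.1%, against 39.6%, 21.2% and 33.3% of all tested probe sets. The U3 snoRNP proteins imp3 and imp4, which help the U3 RNA pair with the precursor, were among the largest decreases. Levels of imp3 were 7.43, 7.44 and 7.27 in embryo 0.1 Gy livers, 7.40, 7.47 and 7.36 in embryo 1.0 Gy livers, 6.998, 6.67 and 6.20 in adult 0.1 Gy livers, 6.33, 6.28 and 6.34 in adult 1.0 Gy livers, and 7.34, 7.83 and 7.83 in control livers. All 6 adult arrays lay below all other arrays, and the embryo arrays lay around the lowest control and below the other 2. The acute difference was -1.20 ± 0.15, adjusted p = 3.2e-05 (0.44-fold), the time difference was 0.93 ± 0.12, adjusted p = 7.7e-05, and both calls held in all 15 fits. Without the 4 arrays with another source name the acute difference of imp3 was -1.08, adjusted p = 0.0015. The long-term difference was -0.27 ± 0.15 and was not called.

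Its partner imp4 read 5.86, 5.71 and 5.41 in embryo 0.1 Gy livers, 6.11, 6.03 and 5.65 in embryo 1.0 Gy livers, 5.67, 5.56 and 5.24 in adult 0.1 Gy livers, 4.86, 5.24 and 4.94 in adult 1.0 Gy livers, and 5.67, 6.35 and 6.34 in control livers. The 6 adult arrays reached at most 5.67, level with control replicate 1 and below the other controls. For imp4 the acute difference was -0.87 ± 0.17, adjusted p = 0.0011, and the time difference was 0.54 ± 0.14, adjusted p = 0.008, both called in all 15 fits. A second probe set of imp4 gave -0.63 ± 0.21 and 0.39 ± 0.17, neither of them called, and without the 4 arrays with another source name the acute difference was -0.55 and lost its call.

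Of the processome subunits that bind the precursor first, nol11 and utp4 went in opposite directions. The arrays of nol11 read 6.77, 6.55 and 6.71 in embryo 0.1 Gy livers, 6.64, 6.62 and 6.72 in embryo 1.0 Gy livers, 6.42, 6.33 and 6.03 in adult 0.1 Gy livers, 6.12, 6.04 and 6.13 in adult 1.0 Gy livers, and 6.85, 7.11 and 7.24 in control livers. Controls were highest, embryo livers lay between, and adult livers were lowest without overlap between the 3 sets. The differences were -0.88 ± 0.11, adjusted p = 2.3e-05 for the acute response, -0.40 ± 0.11, adjusted p = 0.017 for the long-term response and 0.49 ± 0.09, adjusted p = 7.2e-04 for time. The acute and time calls held in all 15 fits, and the long-term call was lost without control replicate 2 or 3 (-0.51 to -0.31) and without the 4 arrays with another source name (-0.18).

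By contrast, utp4 (cirhin, mutated in a childhood liver disease of humans) read 7.64, 7.76 and 7.91 in embryo 0.1 Gy livers, 7.89, 7.59 and 7.18 in embryo 1.0 Gy livers, 7.56, 7.73 and 7.997 in adult 0.1 Gy livers, 7.48, 7.23 and 7.67 in adult 1.0 Gy livers, and 7.07, 7.01 and 7.19 in control livers. All adult arrays lay above all controls, and 5 of 6 embryo arrays did. The long-term difference was 0.57 ± 0.15, adjusted p = 0.015, and the acute difference was 0.52 ± 0.15, adjusted p = 0.012. Both were lost without control replicate 1 or 2 (0.49 to 0.66 and 0.46 to 0.58), and without the 4 arrays with another source name they were 0.59 and 0.66 and were not called.

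The clearest increase shared by every irradiated liver was that of utp23, a processome factor bound to a snoRNA. Levels were 7.11, 7.29 and 7.29 in embryo 0.1 Gy livers, 7.21, 7.35 and 7.21 in embryo 1.0 Gy livers, 7.47, 7.41 and 7.23 in adult 0.1 Gy livers, 7.28, 6.98 and 7.18 in adult 1.0 Gy livers, and 6.65, 6.49 and 6.66 in control livers. The lowest irradiated array, at 6.98, lay above the highest control, at 6.66. Differences were 0.64 ± 0.10, adjusted p = 5.6e-04 (long-term) and 0.66 ± 0.10, adjusted p = 1.0e-04 (acute), and the time difference was -0.02 ± 0.08. Its interquartile range of 0.244 was close to the limit, so that it was no longer tested in the 4 fits without a control array or without adult 1.0 Gy replicate 2, nor without the 4 arrays with another source name. It was called in the other 11, where the differences ran from 0.62 to 0.67 and from 0.62 to 0.69.

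Further small subunit factors fell in the acute response. Levels of nol6, a processome subunit of the CURI complex in yeast, were 5.86, 5.99 and 5.66 in embryo 0.1 Gy livers, 6.0004, 5.99 and 6.28 in embryo 1.0 Gy livers, 5.86, 5.74 and 5.48 in adult 0.1 Gy livers, 5.01, 5.51 and 5.20 in adult 1.0 Gy livers, and 5.65, 6.63 and 6.71 in control livers. Control replicate 1 lay within the range of the adult 0.1 Gy arrays and nearly 1 unit below the other controls. Against the controls its acute difference was -0.86 ± 0.20, adjusted p = 0.0033, called in all 15 fits (-1.20 to -0.67) but not without the 4 arrays with another source name (-0.29, adjusted p = 0.4), and the time difference was 0.50 ± 0.16, adjusted p = 0.028.

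The smaller processome protein nol7 read 7.06, 6.999 and 7.03 in embryo 0.1 Gy livers, 6.89, 6.92 and 6.92 in embryo 1.0 Gy livers, 6.78, 6.73 and 6.74 in adult 0.1 Gy livers, 6.30, 6.29 and 6.42 in adult 1.0 Gy livers, and 6.82, 7.23 and 7.35 in control livers. Its irradiated groups were tight, and adult 1.0 Gy lay lowest, adult 0.1 Gy next and the embryo groups above both. The acute difference was -0.59 ± 0.10, adjusted p = 4.4e-04 and the time difference 0.43 ± 0.08, adjusted p = 0.0014, both called in all 15 fits. Of these the acute call was lost without the 4 arrays with another source name (-0.28, adjusted p = 0.19).

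The arrays of utp11, a U3 associated protein, read 6.06, 6.04 and 5.97 in embryo 0.1 Gy livers, 6.57, 6.51 and 6.10 in embryo 1.0 Gy livers, 5.69, 5.58 and 5.91 in adult 0.1 Gy livers, 5.42, 5.53 and 6.03 in adult 1.0 Gy livers, and 6.04, 6.51 and 6.40 in control livers. All 6 adult arrays lay below the lowest control, though 1 of them, adult 1.0 Gy replicate 3, by only 0.01. The differences were -0.62 ± 0.15, adjusted p = 0.0044 (acute) and 0.51 ± 0.12, adjusted p = 0.0053 (time), both called in all 15 fits, and utp11 was not tested without the 4 arrays with another source name. Of the other members of this role, utp6, a subunit of the second processome complex, was lower in the acute response (-0.39 ± 0.15, adjusted p = 0.042) and higher in long-term than in acute livers (0.45 ± 0.12, adjusted p = 0.0092), and the helicase ddx49 was higher in long-term than in acute livers (0.39 ± 0.14, adjusted p = 0.04). These rested on few arrays: the utp6 calls were lost in 13 and 12 of the 15 fits, without control replicates 2 or 3 among them for the acute call (range -0.62 to -0.20), and the ddx49 call in 10 (range 0.31 to 0.49). When the 4 arrays with another source name were dropped, utp6 was at 0.092, adjusted p = 0.74 in the acute response, and ddx49 lost its time call (0.45).

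**Figure D3:**
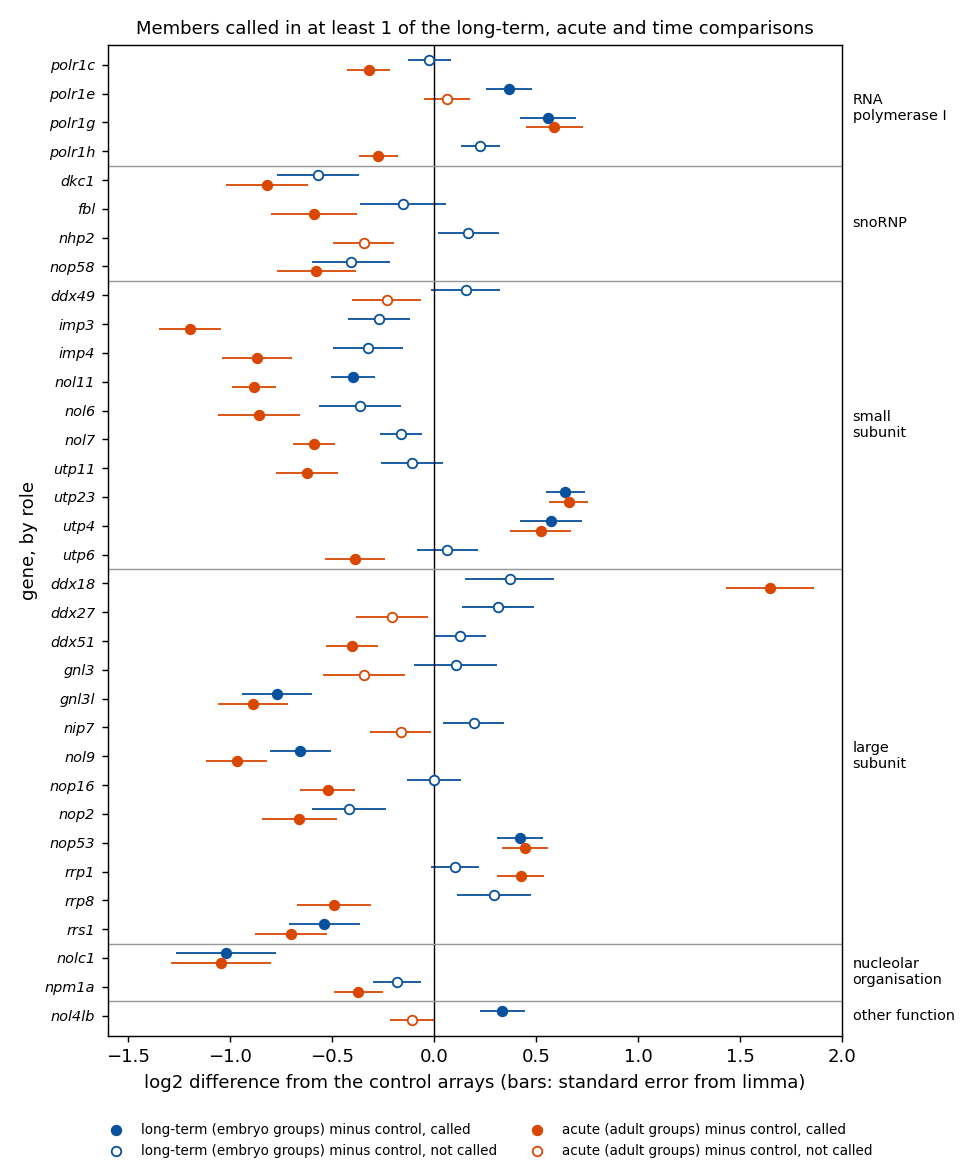
Log2 difference from the 3 control arrays for the members called in at least 1 of the long-term, acute and time comparisons, for the long-term (blue) and acute (orange) groups, with the standard error from limma, filled where called. Most acute points lie left of 0, down to -1.20 for imp3, while ddx18 lies at 1.65 and utp23, utp4, polr1g and nop53 lie right of 0 in both responses.

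Large subunit factors held the largest increase of the module. Of 19 tested, 10 were called in the acute response (7 lower, 3 higher), 4 in the long-term response (1 higher, 3 lower) and 8 in the time comparison (6 higher and 2 lower in long-term livers). As shares these were 52.6%, 21.1% and 42.1%, against 39.6%, 21.2% and 33.3% of all tested probe sets. The largest increase was that of ddx18, a DEAD-box helicase that acts on early 60S particles. Its arrays read 8.07, 8.19 and 7.75 in embryo 0.1 Gy livers, 7.94, 7.93 and 8.06 in embryo 1.0 Gy livers, 9.53, 9.49 and 8.87 in adult 0.1 Gy livers, 9.77, 8.76 and 9.18 in adult 1.0 Gy livers, and 7.23, 7.65 and 7.98 in control livers. Every adult array lay above every other array, and 3 of the 6 embryo arrays lay within the range of the controls, the others just above it. The acute difference was 1.65 ± 0.22, adjusted p = 4.6e-05 (3.13-fold), the time difference was -1.28 ± 0.18, adjusted p = 1.0e-04, and both calls held in all 15 fits. The long-term difference was 0.37 ± 0.22 and was not called. A second probe set of ddx18, which was not the one chosen, gave 0.85 ± 0.18 for the acute response (adjusted p = 0.0015), and without the 4 arrays with another source name the chosen one gave 1.82.

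Higher in both responses was nop53, which hands precursor RNA to the exosome. Levels were 10.84, 11.20 and 11.37 in embryo 0.1 Gy livers, 11.02, 11.09 and 11.25 in embryo 1.0 Gy livers, 11.41, 11.29 and 11.32 in adult 0.1 Gy livers, 10.98, 10.88 and 11.03 in adult 1.0 Gy livers, and 10.81, 10.57 and 10.74 in control livers. All irradiated arrays lay above all controls, the lowest (embryo 0.1 Gy replicate 1, 10.84) by 0.03. The differences were 0.42 ± 0.11, adjusted p = 0.016 and 0.44 ± 0.11, adjusted p = 0.0052 for the long-term and acute responses. The acute call held in all 15 fits and the long-term call was lost without control replicates 2 or 3 (0.35 to 0.50), and without the 4 arrays with another source name the differences were 0.31 and 0.33, neither called.

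The third acute increase was that of rrp1, a 60S assembly factor with the array values 7.44, 7.31 and 7.47 in embryo 0.1 Gy livers, 7.07, 7.18 and 7.01 in embryo 1.0 Gy livers, 7.57, 7.60 and 7.88 in adult 0.1 Gy livers, 7.23, 7.47 and 7.67 in adult 1.0 Gy livers, and 7.07, 7.02 and 7.36 in control livers. Its adult arrays overlapped the controls, since control replicate 3 lay above adult 1.0 Gy replicate 1. Its acute increase was 0.42 ± 0.12, adjusted p = 0.0092, lost only without control replicate 2 (0.36 to 0.53), and the time difference was -0.32 ± 0.10, adjusted p = 0.016. The acute call also held without the 4 arrays with another source name (0.60, adjusted p = 0.048).

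Both called in the long-term and acute responses, nol9 and gnl3l fell. The RNA kinase nol9, which acts in removal of the second internal spacer, read 5.35, 5.01 and 5.08 in embryo 0.1 Gy livers, 5.01, 4.72 and 4.81 in embryo 1.0 Gy livers, 4.51, 4.79 and 4.33 in adult 0.1 Gy livers, 4.87, 4.72 and 4.90 in adult 1.0 Gy livers, and 5.25, 5.75 and 5.96 in control livers. All 6 adult arrays lay below all controls, while embryo 0.1 Gy replicate 1 lay above control replicate 1. For nol9 the acute difference was -0.97 ± 0.15, adjusted p = 1.6e-04, called in all 15 fits and without the 4 arrays with another source name (-0.67). The long-term difference was -0.66 ± 0.15, adjusted p = 0.0068, lost without control replicate 3 (-0.86 to -0.50). Without those 4 arrays the long-term difference of nol9 was -0.26, and its call was lost.

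The GTPase gnl3l, a relative of nucleostemin, read 6.12, 6.02 and 5.52 in embryo 0.1 Gy livers, 6.95, 6.56 and 6.32 in embryo 1.0 Gy livers, 6.40, 6.28 and 6.10 in adult 0.1 Gy livers, 5.96, 5.93 and 6.13 in adult 1.0 Gy livers, and 6.65, 7.13 and 7.29 in control livers. Adult arrays all lay below the controls, and the embryo 1.0 Gy arrays lay nearer to the controls than the embryo 0.1 Gy arrays. The differences were -0.89 ± 0.17, adjusted p = 9.0e-04 (acute, called in all 15 fits) and -0.77 ± 0.17, adjusted p = 0.006 (long-term, lost without control replicate 3, -0.96 to -0.64). With the 4 arrays of another source name left out, they were -0.59 and -0.40, neither called.

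For rrs1, which brings the 5S particle into the large subunit, the arrays read 5.96, 5.93 and 5.42 in embryo 0.1 Gy livers, 6.75, 6.58 and 6.37 in embryo 1.0 Gy livers, 6.53, 6.26 and 6.40 in adult 0.1 Gy livers, 5.67, 5.49 and 5.69 in adult 1.0 Gy livers, and 6.18, 6.98 and 6.96 in control livers. In both ages at exposure 1 dose was low, the 0.1 Gy dose in embryos and the 1.0 Gy dose in adults. The acute difference was -0.70 ± 0.18, adjusted p = 0.0051 and was called in all 15 fits. The long-term difference, -0.54 ± 0.18, adjusted p = 0.04, was lost in 6 fits, without control replicates 2 or 3 among them (-0.80 to -0.40), and without the 4 arrays with another source name the acute and long-term differences were -0.17 and -0.01.

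The methyltransferase nop2, which modifies the large ribosomal RNA, read 6.38, 5.85 and 5.72 in embryo 0.1 Gy livers, 6.501, 6.55 and 6.53 in embryo 1.0 Gy livers, 6.70, 6.44 and 6.10 in adult 0.1 Gy livers, 5.45, 5.72 and 5.66 in adult 1.0 Gy livers, and 6.21, 6.79 and 7.02 in control livers. The adult 1.0 Gy arrays and 2 of the embryo 0.1 Gy arrays lay below all others. For nop2 the acute difference was -0.66 ± 0.18, adjusted p = 0.0091, lost without control replicate 3 (-0.89 to -0.49), and the long-term difference was -0.42 ± 0.18, not called. In the fit that left out the 4 arrays with another source name, the acute difference was -0.35 and not called.

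A set of large subunit factors was called in the time comparison. Among those higher in long-term livers, the methyltransferase rrp8 had the largest difference. It read 5.77, 5.22 and 5.31 in embryo 0.1 Gy livers, 5.81, 5.70 and 5.16 in embryo 1.0 Gy livers, 4.76, 4.96 and 4.47 in adult 0.1 Gy livers, 4.75, 4.81 and 4.50 in adult 1.0 Gy livers, and 4.96, 5.097 and 5.55 in control livers. All embryo arrays lay above all adult arrays, and the controls overlapped both. The time difference was 0.78 ± 0.15, adjusted p = 9.8e-04, called in all 15 fits. The acute difference of -0.49 ± 0.18, adjusted p = 0.036 was lost in 5 fits, without control replicates 2 or 3 among them (-0.62 to -0.32). It was also lost without the 4 arrays with another source name (-0.38).

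The helicase ddx51 read 6.37, 5.87 and 5.76 in embryo 0.1 Gy livers, 5.84, 5.86 and 5.89 in embryo 1.0 Gy livers, 5.52, 5.69 and 5.43 in adult 0.1 Gy livers, 5.13, 5.38 and 5.26 in adult 1.0 Gy livers, and 5.73, 5.69 and 5.99 in control livers. The other probe sets of ddx51, with interquartile ranges of 0.10 to 0.16, did not vary enough to be tested. On the chosen probe set, embryo arrays lay above adult arrays without overlap. The time difference was 0.53 ± 0.10, adjusted p = 0.0014, called in all 15 fits, and the acute difference was -0.40 ± 0.13, adjusted p = 0.019, lost without control replicate 3 (-0.46 to -0.31) and without the 4 arrays with another source name (-0.38). The values of nop16, a nucleolar 60S factor, were 8.20, 8.11 and 7.99 in embryo 0.1 Gy livers, 7.83, 8.005 and 7.92 in embryo 1.0 Gy livers, 7.89, 7.83 and 7.52 in adult 0.1 Gy livers, 7.09, 7.37 and 7.22 in adult 1.0 Gy livers, and 7.70, 7.96 and 8.36 in control livers. Here the adult 1.0 Gy arrays were lowest, below every other array, and the time (0.52 ± 0.11, adjusted p = 0.0021) and acute (-0.52 ± 0.13, adjusted p = 0.0057) calls held in all 15 fits. The acute call of nop16 was lost without the 4 arrays with another source name (-0.33, adjusted p = 0.2).

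The helicase ddx27 read 7.52, 7.22 and 7.39 in embryo 0.1 Gy livers, 7.16, 7.22 and 7.04 in embryo 1.0 Gy livers, 7.16, 7.06 and 6.53 in adult 0.1 Gy livers, 6.46, 6.60 and 6.63 in adult 1.0 Gy livers, and 6.49, 6.91 and 7.44 in control livers. The time difference was 0.52 ± 0.15, adjusted p = 0.012, with overlapping arrays, and the call was lost in 9 of 15 fits, without control replicate 2 among them (0.42 to 0.58). The time differences of gnl3 (nucleostemin) and nip7, a late 60S factor, were 0.45 ± 0.16, adjusted p = 0.045 and 0.36 ± 0.12, adjusted p = 0.031, lost in 10 and 11 fits (ranges 0.37 to 0.52 and 0.30 to 0.41), without adult 1.0 Gy replicate 1 among them. The PeBoW scaffold of pes, bop1 and wdr12, needed to process the large subunit RNA, was not called in any comparison, with acute differences of 0.14 ± 0.30, 0.30 ± 0.10 and -0.27 ± 0.15.

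Of the proteins that organise the nucleolus, 3 of 5 were tested, since ncl (nucleolin) and ddx21 did not vary enough. The snoRNP chaperone nolc1 had the largest long-term decrease of the module. It read 6.02, 5.50 and 5.61 in embryo 0.1 Gy livers, 6.03, 5.80 and 5.87 in embryo 1.0 Gy livers, 5.76, 6.10 and 6.14 in adult 0.1 Gy livers, 5.33, 5.66 and 5.69 in adult 1.0 Gy livers, and 5.93, 7.27 and 7.28 in control livers. Control replicates 2 and 3 lay near 7.27 while control replicate 1, at 5.93, lay among the irradiated arrays. The differences were -1.02 ± 0.24, adjusted p = 0.0092 and -1.05 ± 0.24, adjusted p = 0.0033 for the long-term and acute responses, both lost without control replicate 2 or 3 (-1.47 to -0.80 and -1.49 to -0.82). With the 4 arrays of another source name left out, they were -0.13 and -0.081.

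Nucleophosmin (npm1a), the abundant chaperone of the granular zone, read 11.39, 11.23 and 11.31 in embryo 0.1 Gy livers, 11.16, 11.33 and 11.25 in embryo 1.0 Gy livers, 11.48, 11.21 and 11.48 in adult 0.1 Gy livers, 10.59, 10.71 and 11.07 in adult 1.0 Gy livers, and 11.26, 11.51 and 11.61 in control livers. A second probe set of npm1a, with an interquartile range of 0.135, did not vary enough to be tested. On the chosen probe set of npm1a, the adult 1.0 Gy arrays lay below all others and the remaining groups overlapped. Its acute decrease was -0.37 ± 0.12, adjusted p = 0.019, lost without control replicate 2 or 3 (-0.47 to -0.30) and without the 4 arrays with another source name (-0.13). Its paralog npm1b was not called, with control values from 5.00 to 6.84.

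The other named member, nol4lb, read 4.19, 4.28 and 4.49 in embryo 0.1 Gy livers, 4.69, 4.50 and 4.42 in embryo 1.0 Gy livers, 4.13, 3.92 and 3.92 in adult 0.1 Gy livers, 3.94, 3.99 and 4.003 in adult 1.0 Gy livers, and 4.32, 3.92 and 4.03 in control livers. Its increase in the long-term response was called (0.33 ± 0.11, adjusted p = 0.04, lost in 8 of 15 fits, without control replicates 2 or 3 among them, 0.25 to 0.45) and was higher in long-term than in acute livers (0.44 ± 0.09, adjusted p = 0.0016, called in all 15 fits). Without the 4 arrays with another source name the long-term difference was 0.10 and not called. All values of nol4lb lay below the array medians of 5.02 to 5.14.

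**Figure D4:**
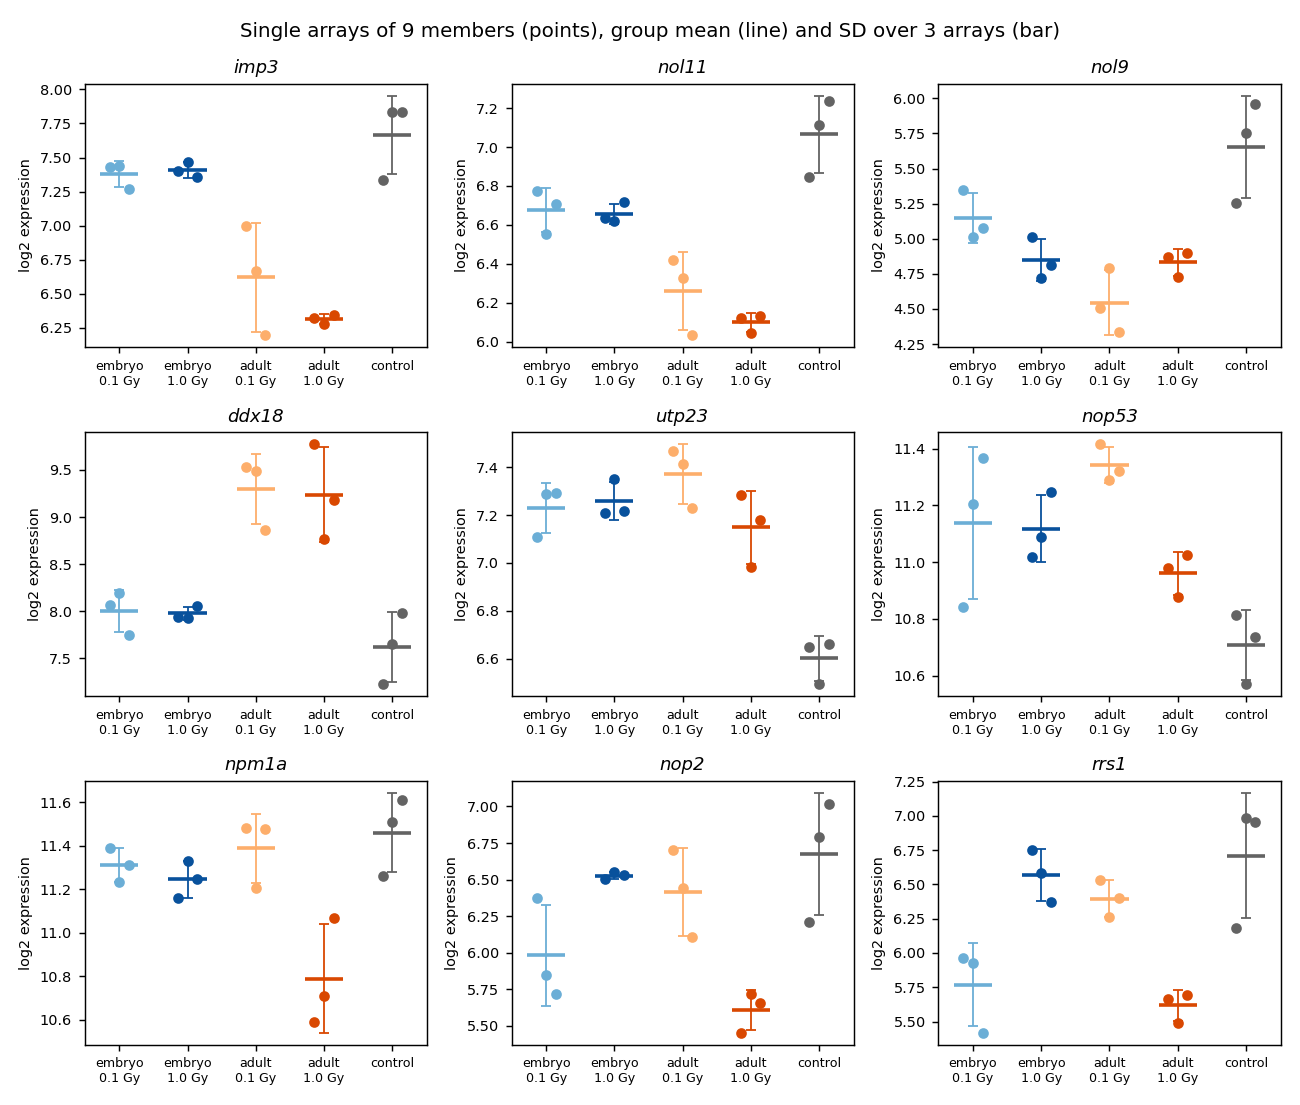
Log2 values of 9 members on each array (points, replicates 1 to 3 from left to right), with the group mean (line) and SD over 3 arrays (bar). In adult livers of both doses imp3 and nol11 are lowest and ddx18 is highest, utp23 and nop53 are lowest in controls, and the arrays of the adult doses do not overlap for npm1a, nop2 and rrs1.

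Between the doses, no member was called in adults (0 of 50, against 0.0811% of all tested probe sets, limma), although 16 members had an unadjusted p under 0.05, as did 1077 of all 8634 tested probe sets. The members lay to one side nonetheless. The difference of 0.1 minus 1.0 Gy was above 0 for 46 of 50 members (92%), against 45.4% of all tested probe sets, and its median was 0.27, against -0.02. For 22 members all 3 adult 0.1 Gy arrays lay above all 3 adult 1.0 Gy arrays, which held for 9.52% of all tested probe sets, and for 0 members they all lay below (9.27%). The share above 0 was between 70.5% and 100% in every processing alternative, and lowest without the 4 arrays with another source name (31 of 44, median 0.23), which leaves a single adult 0.1 Gy array.

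The largest adult differences were those of nop2, at 0.81 ± 0.21, adjusted p = 0.14, rrs1, at 0.78 ± 0.20, adjusted p = 0.14, and gnl3, at 0.70 ± 0.23, adjusted p = 0.26. The smallest adjusted p was that of npm1a (0.60 ± 0.14, adjusted p = 0.11). In each of these 4 genes the adult 0.1 Gy arrays lay above the adult 1.0 Gy arrays without overlap, and none passed the threshold. By role the median difference was 0.54 for the 4 tested snoRNP proteins, 0.44 for the 3 of nucleolar organisation, 0.29 for the 19 of the large subunit, 0.22 for the 17 of the small subunit and 0.13 for the 6 of RNA polymerase I. Only polr1g, polr1h, bop1 and nol9 lay below 0, and nol9 was the lowest at -0.29 ± 0.17.

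In fish irradiated as embryos the doses did not set the members to one side. Again 0 of 50 members were called (1.24% of all tested probe sets, limma), 6 had an unadjusted p under 0.05, the median was -0.02 and 23 members lay above 0. Without overlap of the arrays, 4 members were higher (10.1% of all tested probe sets) and 6 were lower (9.50%) at 0.1 than at 1.0 Gy. The largest differences were those of pes, at 0.92 ± 0.34, adjusted p = 0.24, rrs1, at -0.80 ± 0.20, adjusted p = 0.073, and gnl3l, at -0.72 ± 0.20, adjusted p = 0.096.

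**Figure D5:**
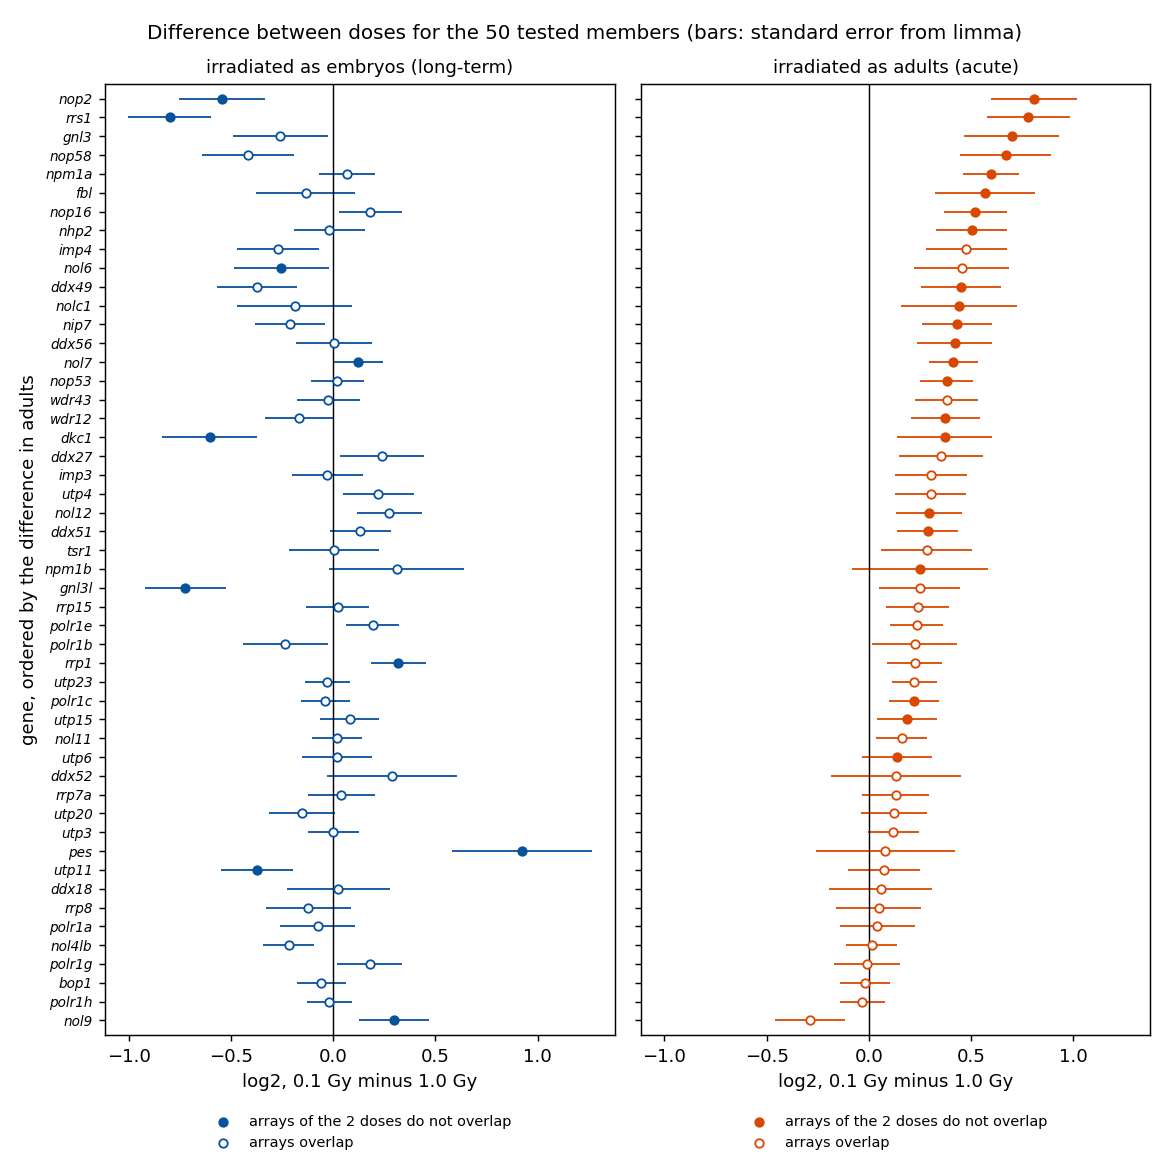
Log2 difference of 0.1 minus 1.0 Gy for the 50 tested members in fish irradiated as embryos (left) and as adults (right), ordered by the adult difference, with the standard error from limma, filled where the arrays of the doses do not overlap. In adults 46 of 50 points lie above 0 and 22 are filled, all on that side, and in embryos 23 lie above 0.

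The time-dose interaction, which is the embryo difference between doses minus the adult one, divided by 2, was called for 1 of 50 members, rrs1 (0.707% of all tested probe sets). For rrs1 it was -0.79 ± 0.14, adjusted p = 0.028. The embryo and adult doses differed in opposite directions, each without overlap of the arrays. The call was lost in 8 of the 15 fits, without embryo 0.1 Gy replicate 2 among them (-0.84 to -0.70), and without the 4 arrays with another source name it was -0.79, adjusted p = 0.045. The next was nop2, at -0.68 ± 0.15, adjusted p = 0.058.

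Outside the naming rule, 87 further genes of the pathway were measured and 73 tested. Of these, 19 were called in the long-term response (14 higher, 5 lower, 26.0%), 30 in the acute response (14 higher, 16 lower, 41.1%) and 24 in the time comparison (20 higher, 4 lower, 32.9%), totals near the shares of all tested probe sets. In the long-term response 19.2% were called higher and 6.85% lower, against 7.56% and 13.7% of all tested probe sets. This split rests on the same controls as that of the members, which moved with single controls, and it was not recounted without them. Their median acute difference was -0.09. Between the adult doses 64 of 73 (87.7%) lay above 0, against 45.4% of all tested probe sets, with a median of 0.29. Without overlap of the arrays, 31 were higher (9.52% of all tested probe sets) and 1 was lower (9.27%) at 0.1 than at 1.0 Gy. None was called (0.0811%).

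The polymerase I transcription factors ubtf and ubtfl, which open the ribosomal genes, rose in the acute response (0.62 ± 0.12, adjusted p = 0.001 and 0.56 ± 0.10, adjusted p = 5.5e-04), as did the initiation factor rrn3 (0.44 ± 0.13, adjusted p = 0.014), unlike most polymerase I subunits. The levels of ubtf were 6.65, 6.48 and 6.79 in embryo 0.1 Gy livers, 6.92, 6.61 and 6.79 in embryo 1.0 Gy livers, 7.48, 7.94 and 7.66 in adult 0.1 Gy livers, 7.69, 7.48 and 7.37 in adult 1.0 Gy livers, and 6.99, 6.87 and 7.09 in control livers. All adult arrays lay above all other arrays. In both responses sart3, known from U6 snRNA recycling and listed here with the small subunit genes, was lower, at -1.32 ± 0.13, adjusted p = 4.8e-05 (long-term) and -1.58 ± 0.13, adjusted p = 1.4e-06 (acute). The large subunit factor sdad1 rose in both, by 1.41 ± 0.16, adjusted p = 1.0e-04 (long-term) and 1.43 ± 0.16, adjusted p = 1.4e-05 (acute), with levels of 8.46, 8.56 and 8.91 in embryo 0.1 Gy livers, 8.78, 8.67 and 8.29 in embryo 1.0 Gy livers, 8.85, 8.57 and 8.73 in adult 0.1 Gy livers, 8.59, 8.46 and 8.59 in adult 1.0 Gy livers, and 7.63, 6.85 and 7.12 in control livers. For sdad1 no irradiated array overlapped the controls. The processome subunit pwp2h fell in the acute response (-1.26 ± 0.27, adjusted p = 0.0016), and so did the exosome subunit exosc6 (-1.18 ± 0.16, adjusted p = 6.0e-05). With the 4 arrays of another source name left out, the acute differences were 0.59 for ubtf, 0.40 for ubtfl, 0.58 for rrn3, -0.83 for pwp2h and -0.75 for exosc6, with none of these called. Both sart3 calls and the acute sdad1 call held there, and the long-term sdad1 call did not (0.99, adjusted p = 0.055).

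Myc transcription factors are known activators of ribosome biogenesis genes. Of the 9 Myc family and coactivator genes, 7 were tested, and 0 were called in the long-term or acute response. Instead mycb differed between the embryo doses. It read 9.90, 10.29 and 10.46 in embryo 0.1 Gy livers, 5.95, 6.53 and 7.14 in embryo 1.0 Gy livers, 8.78, 9.10 and 8.54 in adult 0.1 Gy livers, 7.21, 6.72 and 7.42 in adult 1.0 Gy livers, and 5.63, 6.48 and 9.84 in control livers. All embryo 0.1 Gy arrays lay above 9.89 and all embryo 1.0 Gy arrays below 7.15, while the controls spanned from 5.63 to 9.84. The embryo difference of 0.1 minus 1.0 Gy was 3.68 ± 0.74, adjusted p = 0.026, lost in the 6 fits without an embryo array (3.38 to 3.98), and the adult one was 1.69 ± 0.74, adjusted p = 0.36, also without overlap.

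The coactivator pprc1 went the other way in embryos. Its levels were 3.91, 3.95 and 3.69 in embryo 0.1 Gy livers, 5.34, 5.71 and 5.21 in embryo 1.0 Gy livers, 3.95, 4.17 and 4.78 in adult 0.1 Gy livers, 3.84, 3.82 and 4.09 in adult 1.0 Gy livers, and 4.67, 4.58 and 4.26 in control livers. Embryo 1.0 Gy arrays lay above all other arrays, and only they exceeded the array medians of 5.02 to 5.14. Embryo 0.1 Gy and adult 1.0 Gy values, from 3.69 to 4.09, lay toward the floor of the arrays, where mak16 had a mean of 3.42. The embryo 0.1 Gy mean (3.85) was below that of adult 0.1 Gy livers (4.30), so the time difference rested on embryo 1.0 Gy livers (5.42). The embryo difference was -1.57 ± 0.20, adjusted p = 0.0023, the time difference 0.53 ± 0.14, adjusted p = 0.0087, and the interaction -0.98 ± 0.14, adjusted p = 0.014, all called in each of the 15 fits. The time call was lost without the 4 arrays with another source name (0.29, adjusted p = 0.12), and the other two held. The acute and long-term differences of myca, mych, max, mxi1 and mxd4 lay between -0.34 and 0.29, without a call.

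Of 73 cytosolic ribosomal protein genes, 2 varied enough to be tested and 0 were called, with 1 of the 2 at an unadjusted p under 0.05 in each response. Of 59 mitochondrial ribosomal protein genes 51 were tested, and 34 (66.7%) fell and 0 rose in the acute response (median -0.52), against 25.0% and 14.6% of all tested probe sets, while 40 (78.4%) were higher in long-term than in acute livers, against 20.6%. Between the adult doses (0.1 minus 1.0 Gy) 41 of the 51 (80.4%) lay above 0, against 45.4% of all tested probe sets. Their median was 0.12. Without overlap of the arrays, 11 were higher (9.52% of all tested probe sets) and 2 were lower (9.27%) at 0.1 Gy. None was called (0.0811%). For mrpl48 the acute difference was -1.30 ± 0.12, adjusted p = 3.5e-06. Of the 14 subunits of RNA polymerases II and III, 10 were tested. In the acute response 6 (60%) fell and 2 (20%) rose, against 25.0% and 14.6% of all tested probe sets. The largest fall was that of polr3k (-0.93 ± 0.14, adjusted p = 1.1e-04). In the time comparison 6 (60%) were higher and 1 (10%) was lower in long-term livers, against 20.6% and 12.7%. The calls of mrpl48 and polr3k held without the 4 arrays with another source name (-1.11 and -0.83).

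Markers of cell types were measured beside these genes. The log2 of the summed signal of 16 hepatocyte markers was 17.95 to 18.14 in all groups. The highest markers, such as fabp10a and apoa2 (control means 15.04 and 14.97), weigh most in this sum. Quantile normalization gives all arrays the same distribution of values, which limits how far such a sum can move. A steady sum of these 16 hepatocyte markers therefore does not measure the share of hepatocytes. Of these markers 8 were tested, hpxa was called higher in the acute response (0.21 ± 0.08, adjusted p = 0.032), and fga (-0.38 ± 0.08, adjusted p = 0.0014) and hpxa (-0.27 ± 0.06, adjusted p = 0.0035) were lower in long-term than in acute livers, none of them called without the 4 arrays with another source name. Of the 8 hepatocyte markers tested, 1 lay above 0 in the long-term response (median -0.08) and 4 in the acute response (median -0.03). In adult 0.1 minus 1.0 Gy 4 lay above 0 (median -0.02). The apolipoprotein apoa1a, chosen after its values were seen, read 14.31, 10.32 and 12.51 in adult 1.0 Gy livers, against 14.51, 14.05 and 14.33 in control livers. It read 14.41, 14.28 and 13.85 in embryo 0.1 Gy, 12.97, 14.39 and 13.90 in embryo 1.0 Gy, and 14.25, 14.43 and 14.72 in adult 0.1 Gy livers. The summed signal of 11 exocrine pancreas markers was 13.91 to 16.11 in embryo 0.1 Gy, 14.69 to 15.70 in embryo 1.0 Gy, 13.12 to 14.63 in adult 0.1 Gy, 13.03 to 16.31 in adult 1.0 Gy and 14.15 to 15.64 in control livers. None of these 11 was called, but all 11 lay below 0 in the acute response (median -0.67), above 0 in the time comparison (median 0.96), and below 0 in adult 0.1 minus 1.0 Gy (median -0.55). The first pair of shifts ran the same way as the medians of the module and the last ran the opposite way. The summed signal of 10 leukocyte markers was 10.86 to 10.96 in embryo 0.1 Gy, 10.77 to 11.73 in embryo 1.0 Gy, 10.75 to 11.11 in adult 0.1 Gy and 10.86 to 10.93 in adult 1.0 Gy livers, against 9.99 to 10.78 in control livers, with 1 marker called higher in long-term livers and 2 in acute livers. Of the 9 leukocyte markers tested, 9 lay above 0 in the long-term response (median 0.45) and 7 in the acute response (median 0.25). Of the 6 erythrocyte markers 0 were called, but all 6 lay above 0 in the long-term (median 0.25) and acute (median 0.52) responses. In the acute response 3 of the erythrocyte markers had an unadjusted p under 0.05. Of the 10 germ cell markers 6 were tested and 0 were called, but all 6 lay above 0 in the acute response (median 0.28, 3 with an unadjusted p under 0.05) and below 0 in the time comparison, 2 of them with such a p. Of the 5 intestine markers 2 were tested, and fabp2, the intestinal fatty acid binding protein, was higher in long-term than in acute livers (2.29 ± 0.77, adjusted p = 0.03). It read 4.76, 8.12 and 9.59 in embryo 0.1 Gy livers, 10.77, 11.29 and 10.72 in embryo 1.0 Gy livers, 7.90, 6.01 and 7.87 in adult 0.1 Gy livers, 6.60, 6.66 and 6.43 in adult 1.0 Gy livers, and 11.18, 8.98 and 6.80 in control livers. The fabp2 call was lost in 6 of the 15 fits, those without embryo 0.1 Gy replicates 2 or 3, any embryo 1.0 Gy array or adult 0.1 Gy replicate 2, and without the 4 arrays with another source name (1.99). Of the 21 cell cycle genes 11 were tested, and 4 (36.4%) were called in the acute response, against 39.6% of all tested probe sets. The 2 that fell were ccnd1 (-1.26 ± 0.16, adjusted p = 4.5e-05) and pcna (-0.88 ± 0.19, adjusted p = 0.002). Of the 2 that rose, mcm7 was at 0.56 ± 0.12, adjusted p = 0.0015, and at 0.22 without the 4 arrays with another source name. Of the 11 tested, 8 lay above 0 (median 0.18). In the fit that left out the 4 arrays with another source name, the ccnd1 call held and the pcna call did not (-0.96, adjusted p = 0.085). The part of these cells in the results above was not tested.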

How the data were processed

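The deposited values are log2 expression per probe set, which the authors made from the scanned arrays by quantile normalization and Robust Multiarray Average in R after a quality check with affyPLM (versions not given in the sources used here). The file holds 15617 probe sets, and medians of the 15 arrays lay between 5.02 and 5.14. After 115 control probe sets of the manufacturer were left out, 15502 remained, of which 10795 had 1 gene symbol in the array annotation, 135 several and 4572 none. A gene was represented by its probe set with the highest mean, and 8 of the 61 members had several. Following the methods of the study, 8634 probe sets were fitted, those whose interquartile range reached 0.2, with limma 3.58.1 in R 4.3.3 as 5 group means, and 4352 passed the F-test. All errors and p values come from this limma fit, with Benjamini-Hochberg adjustment over all tested probe sets, and their precision is limited by 3 arrays per group. The paper states the same filter but counts its comparisons over fewer probe sets, those with detectable hybridization.

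The 6 comparisons were long-term minus control, acute minus control, long-term minus acute (time), 0.1 minus 1.0 Gy within each response, and the time-dose interaction. Values on every array are given for the 6 called members with the largest difference and no overlap of arrays in each comparison and direction, then for up to 2 further called members of each role, and for mycb and pprc1. Of the other lists up to 3 called genes are named, except where a count of 5 or fewer called for a name. The members, roles and lists were chosen with earlier results of these data known. The fit was tested on simulated data. The alternatives were other filters, normalizations, variance models, call rules and probe set summaries, array weights, the replicate number as a block, and fits without single arrays, without the 4 arrays with another source name, and, chosen after seeing the data, without control replicate 1 and adult 1.0 Gy replicate 3. Promoter sequences were not analysed here.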

Additional observations from a re-analysis of the deposited data

Results flagged for a closer look

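The difference between doses was not the same in fish irradiated as embryos and as adults for 3 genes, by the test of that difference itself (the time-dose interaction of limma, in which a negative value means that the 0.1 minus 1.0 Gy difference was lower in embryos). For rrs1, a large subunit factor, the interaction was -0.79 ± 0.14 (adjusted p = 0.028), with dose differences of -0.80 ± 0.20 in embryos and 0.78 ± 0.20 in adults. For nifk, a nucleolar protein that binds the proliferation antigen Ki-67 and lies outside the naming rule, it was -0.82 ± 0.15 (adjusted p = 0.032). For pprc1, a coactivator, it was -0.98 ± 0.14 (adjusted p = 0.014). The rrs1 and nifk calls were each lost in 8 of the 15 fits that left out a single array, with values of -0.84 to -0.70 and -0.89 to -0.71. For both these were the fits without embryo 0.1 Gy replicates 2 or 3, embryo 1.0 Gy replicates 1 or 2, adult 0.1 Gy replicates 1 or 3 or adult 1.0 Gy replicate 2, with adult 1.0 Gy replicate 3 added for rrs1 and adult 1.0 Gy replicate 1 for nifk. The pprc1 call held in all 15, though its embryo 0.1 Gy and adult 1.0 Gy means, 3.85 and 3.92, lay toward the floor of the arrays. The nifk call was also lost without the arrays with another source name, where its interaction was -0.75. In that fit the rrs1 and pprc1 calls held, at -0.79 and -1.22.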

How the results depend on the processing

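Counts of called members changed with single arrays. Leaving out each in turn, the long-term count ran from 2 (without control replicate 2, and 6 without control replicate 3) to 14 (11 with all arrays), the acute count from 16 (without control replicates 2 or 3) to 29 (27), the time count from 12 (without adult 1.0 Gy replicate 1) to 23 (21), the embryo dose count from 0 to 2 (0), the adult dose count from 0 to 1 (0) and the interaction count from 0 to 3 (1). Without the 4 arrays with another source name the long-term count was 1, the acute count 5 and the embryo dose count 1, and utp6 turned from lower to 0.092 in the acute response (adjusted p = 0.74). The long-term call there was of a member not among the 11 called with all arrays. That setting leaves 1 control and 1 adult 0.1 Gy array, assumed to vary like the other groups. With an interquartile range of at least 0.5, which left 16 members to test, the counts were 4 (long-term), 11 (acute), 8 (time) and 2 (interaction). With array weights they were 22 (long-term), 3 (embryo dose), 1 (adult dose) and 3 (interaction). Repeated quantile normalization gave 1 for the embryo dose and 2 for the interaction, and limma-trend with robust variances gave 2 for the interaction. Without control replicate 1 and adult 1.0 Gy replicate 3 together there was 1 for the embryo dose, 1 for the adult dose and 2 for the interaction. The long-term split of 6 higher and 5 lower became 2 and 12 without control replicate 1, 0 and 2 without control replicate 2, 6 and 0 without control replicate 3, 3 and 11 in the setting just named, 3 and 6 with array medians subtracted and 6 and 3 with repeated quantile normalization. The cause of these shifts was not tested.

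Deviations from the group means in arrays with the same replicate number correlated at r from -0.29 to 0.18 (30 pairs, over 0.1 in 4). Pairs with unlike numbers were not compared, so this does not settle whether the numbers pair the samples. With the replicate block the interaction count was 0 and the long-term, acute and time counts were 8, 24 and 16. Genes near the limit of the filter, such as utp23 and polr1c, left the test when single arrays were dropped.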
